A study of Mus musculus with 4 samples.

Results

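The VEGF and angiopoietin-Tie axis was examined in a single-cell RNA sequencing (scRNA-Seq) data set of young and aged mouse lungs, either ventilated or not. Its 9 members are the rows of the 4 deposited matrices whose gene symbol is Vegfa, Kdr, Flt1, Nrp1, Angpt1, Angpt2, Tek, Tie1 or Ptprb, out of 32285 genes in all. All 9 symbols were found in every matrix, and for each member the unique molecular identifiers (UMIs, the counted RNA molecules) were summed per library and cell class. The members were chosen by symbol and role, with earlier results of these data known.

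Every group consisted of male wild-type C57BL/6 mice, and cells came from the left lobe, were frozen and were thawed before capture. Young mice were used at 2 to 3 months and aged mice, which had been held on a restricted diet, at 22 months. Ventilated mice were anesthetized with ketamine and medetomidine, were given buprenorphine, and received 3 h of mechanical ventilation at a tidal volume of 20 mL/kg, a positive end-expiratory pressure of 0 cm H2O and an inspired oxygen fraction of 1.0. The tidal volume was capped, so that heavier mice received less per kg of body weight. The study reported its aged mice as in general heavier than its young ones, so tidal volume per kg and age cannot be told apart. Nonventilated mice were naive and received none of these procedures, so ventilation, anesthesia, analgesia, fluids and oxygen cannot be told apart. Each group was 1 library made from 3 mice pooled before capture. There is therefore no replicate within a group and no test of any difference below. Intervals are 95% intervals that cover counting error only, and an interval of a ratio that leaves out 1 says nothing about the spread between mice.

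The 4 libraries held 15428 cell barcodes, of which 9514 passed the limits on genes, mitochondrial counts and UMIs used here. The UMI limit was set among the barcodes left by the other limits, which is 1 reading of the study's wording. Set among all barcodes it kept 10160 cells, and neither number is the study's own count of cells. Values of the 4 libraries are listed throughout as young without and with ventilation, then aged without and with ventilation, and in this order 2430, 2750, 2374 and 1960 cells were kept. The median depth of the kept cells was between 7236.5 and 8370.5 UMIs in the 4 libraries, and pairs of libraries shared between 0 and 7 cell barcodes. Clustering without the members gave 35 clusters, of which the named ones formed 24 cell classes, called by the markers they expressed. Levels are given as CPM, the UMIs of a gene per 1000000 UMIs of its class in that library. Levels are compared between cell classes and libraries for 1 gene at a time and never between genes, because introns were counted and the genes differ in length.

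In both ages, ventilated and nonventilated cells of the capillary, alveolar fibroblast and monocyte classes fell mostly into different clusters. General capillary cells, the capillary type also called capillary type II and regarded as a progenitor for repair, numbered 556, 619, 502 and 349. A single cluster held 550 and 487 of the nonventilated cells, and another held 610 and 292 of the ventilated ones. Aerocytes, the gas-exchange capillary type, numbered 151, 122, 88 and 84, and all nonventilated aerocytes lay in 1 cluster and all 122 young ventilated ones in another. Of the alveolar fibroblasts, 231, 383, 175 and 177 in number, 1 cluster held 224 and 175 of the nonventilated cells and another held 383 and 175 of the ventilated ones. Nonclassical monocytes had 141 and 303 nonventilated cells in 1 cluster and 177 and 179 ventilated cells in another. Of the 3 classical monocyte clusters, 1 held 94 and 85 nonventilated cells, 1 held 80 and 94 ventilated cells and the third held 6, 95, 52 and 30 cells. Ratios of ventilated over nonventilated levels in these classes therefore compare mostly different clusters. The 6 general capillary markers were all detected, and their summed level in that class was 4962, 2646, 5073 and 3568 CPM, so that the markers of the class were themselves lower after ventilation. The 8 aerocyte markers summed to 9334, 5120, 8069 and 6335 CPM in aerocytes. In general capillary cells the lymphatic list of 6 markers stood at 470, 1464, 483 and 1755 CPM, almost wholly through Lyve1, at 466, 1459, 478 and 1752 CPM. Prox1, the factor that sets lymphatic identity, was at 1.1, 1.7, 2.5 and 0.3 CPM there. Neutrophil markers summed to 27.9, 48.2, 18.9 and 187 CPM in general capillary cells. The part of these shifts in the results below was not tested.

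As background, VEGF-A is a secreted factor that drives vessel growth and makes vessels leak, and it acts mainly through the tyrosine kinase receptor VEGFR2, encoded by Kdr. VEGFR1, encoded by Flt1, binds the same factor tightly but signals weakly and is regarded as a trap for it, and neuropilin-1, encoded by Nrp1, is a co-receptor that holds VEGF-A at VEGFR2. Angiopoietin-1 made by cells around the vessel activates the receptor Tie2, encoded by Tek, and steadies endothelial junctions, whereas angiopoietin-2 released by endothelium is mostly an antagonist of Tie2. Tie1 is an orphan receptor that pairs with Tie2, and the phosphatase VE-PTP, encoded by Ptprb, removes phosphate from Tie2 and is tied to VE-cadherin at the junctions. In the lung the alveolar type I cell is a known source of VEGF-A, and aerocytes are known for high Kdr.

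The promoters of 3 receptor genes are shown here because their genes were lower by different amounts in the same capillary cells after ventilation, as described below: Tek was lower in every blood endothelial class compared, Kdr was lowered most in aerocytes, and Flt1 changed least in aerocytes and in aged general capillary cells. The sequences are the 250 bases before the annotated start in RefSeq on mouse build GRCm38.p6, at chr4:94739039-94739288 for Tek (plus strand), chr5:75978456-75978705 for Kdr (minus strand) and chr5:147726012-147726261 for Flt1 (minus strand). Capitals mark matches to AGGAAG or CGGAAG on either strand, the core bound by ETS factors, a family active in endothelium.
Tek: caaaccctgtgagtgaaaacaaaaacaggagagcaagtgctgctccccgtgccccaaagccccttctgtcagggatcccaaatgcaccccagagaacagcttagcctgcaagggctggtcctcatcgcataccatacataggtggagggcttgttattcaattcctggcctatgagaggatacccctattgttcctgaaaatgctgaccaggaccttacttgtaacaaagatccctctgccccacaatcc
Kdr: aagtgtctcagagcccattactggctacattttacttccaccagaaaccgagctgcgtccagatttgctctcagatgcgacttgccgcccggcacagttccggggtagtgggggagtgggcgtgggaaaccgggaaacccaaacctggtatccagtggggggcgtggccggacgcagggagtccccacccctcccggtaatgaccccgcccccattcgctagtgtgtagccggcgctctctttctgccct
Flt1: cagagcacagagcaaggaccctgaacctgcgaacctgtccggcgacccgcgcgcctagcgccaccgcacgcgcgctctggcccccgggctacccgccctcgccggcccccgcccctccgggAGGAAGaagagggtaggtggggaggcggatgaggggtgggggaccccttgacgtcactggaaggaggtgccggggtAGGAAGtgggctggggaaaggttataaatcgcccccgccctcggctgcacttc
The Flt1 window held 2 matches, both to AGGAAG, and the Tek and Kdr windows held 0. Of 32851 windows of the same length before RefSeq gene starts, 29.5% held AGGAAG, 13.6% held CGGAAG and 39.2% held either. None of these 3 windows matched AGATAA, a core bound by GATA factors that 9.99% of all windows held, or ACGTG, the core of the hypoxia element that 16.6% held. The table used had windows for 6 of the 9 members, among which Tie1 had 2 matches of the ETS type and Nrp1 had 1. Angpt1, Angpt2 and Ptprb had no entry. A match is a description of letters only.

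On GRCm38, the Vegfa gene lies on chromosome 17 at 46016993 to 46032369, Kdr on chromosome 5 at 75932827 to 75978458, and Flt1 on the same chromosome at 147561604 to 147726011. Nrp1 lies on chromosome 8 at 128358604 to 128503363, and Angpt2 on that chromosome at 18690263 to 18741562. Angpt1 is on chromosome 15 at 42424723 to 42676977, Tek on chromosome 4 at 94739289 to 94874976, Tie1 on chromosome 4 at 118471191 to 118490061, and Ptprb on chromosome 10 at 116275523 to 116389535. The counts sum reads over exons and introns of each gene, so isoforms such as soluble Flt1 were not separated.

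To find which cells supplied VEGF-A message, the level of Vegfa was ordered over the classes with at least 20 cells. Alveolar type I cells, the thin cells that cover most of the alveolar surface, had 2779, 2523, 2735 and 3119 CPM. The last of these came from 14 cells and was not compared. Vegfa in general capillary cells was 293, 127, 330 and 203 CPM, in alveolar fibroblasts 148, 98.6, 172 and 111 CPM, and in venous endothelium 116, 57.7, 194 and 64.3 CPM. Alveolar type I cells thus stood above all other classes in every library, while the ranges of general capillary cells, alveolar fibroblasts and venous endothelium overlapped. B cells, used as a gauge of free RNA, were at 3.6 to 17.4 CPM. For members at 0 UMIs in B cells, the count of 0 allows a level of up to 10.4 CPM in the library with the fewest B cells.

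Vegfa differed little after ventilation in its strongest source and was lower in general capillary cells, venous endothelium, alveolar fibroblasts and classical monocytes, but not in every class. In young alveolar type I cells it was 1.10-fold lower (interval 1.01 to 1.20), and the nonventilated aged level was 1.02-fold lower than the young (0.934 to 1.11). In general capillary cells Vegfa was 2.32-fold lower in young mice (2.10 to 2.55) and 1.62-fold lower in aged mice (1.48 to 1.78). The ventilated aged level in these cells was 1.60-fold above the ventilated young level (1.43 to 1.79). Alveolar fibroblasts had 1.50-fold less in young (1.32 to 1.71) and 1.54-fold less in aged mice (1.32 to 1.80). Venous endothelium had 2.02-fold less in young (1.31 to 3.20) and 3.01-fold less in aged mice (2.12 to 4.34). Classical monocytes, at 22.7, 9.1, 62.9 and 14.3 CPM on 33, 14, 79 and 24 UMIs, had 2.50-fold less in young and 4.40-fold less in aged mice. Without the cell that held most in each library the folds were 2.80 (1.36 to 6.22) and 5.53 (3.16 to 10.2). The young ventilated level was below that of B cells in the same library, 17.4 CPM. No young ratio could therefore be given there with the B cell level subtracted. In adventitial fibroblasts, at 45.4, 76.1, 36.3 and 36.8 CPM, Vegfa was 1.68-fold higher in young mice (1.14 to 2.43) and 1.01-fold higher in aged mice, with an interval that holds 1 (0.545 to 1.79). Young myofibroblasts, on 7 and 18 UMIs, had 2.76-fold more (1.10 to 7.81). Aerocytes had 21.7, 22.8, 47.6 and 23.4 CPM, 2.03-fold lower in aged mice (1.18 to 3.61) and 1.05-fold higher in young mice, with an interval that holds 1 (0.594 to 1.84).

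The make-up of the Vegfa pool changed with these levels and with the numbers of cells captured, which cannot be told apart in a share. Of the Vegfa UMIs of the kept cells, alveolar type I cells held 30.1%, 43.2%, 32.9% and 31.2% in the 4 libraries, general capillary cells 39.1%, 21.2%, 37.8% and 35.2%, and alveolar fibroblasts 13.8%, 18.0%, 10.8% and 15.1%. Alveolar type I cells were only 26, 36, 33 and 14 cells. Over all kept cells Vegfa was at 150, 126, 176 and 105 CPM. A Vegfa UMI was found in 43.8%, 19.9%, 42.7% and 29.4% of general capillary cells after each cell was thinned to 2000 UMIs, against 1.3% to 3.4% of the 29 to 95 thinned B cells, and in 76.8%, 43.9%, 79.5% and 62.2% without thinning. A B cell share of 0% allows up to 11.9% where it rests on 29 cells. The median depth was 7272.5, 6764, 7876.5 and 8297 UMIs in general capillary cells and 7372.5, 8128, 8245 and 10059 UMIs in B cells.

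**Figure D1:**
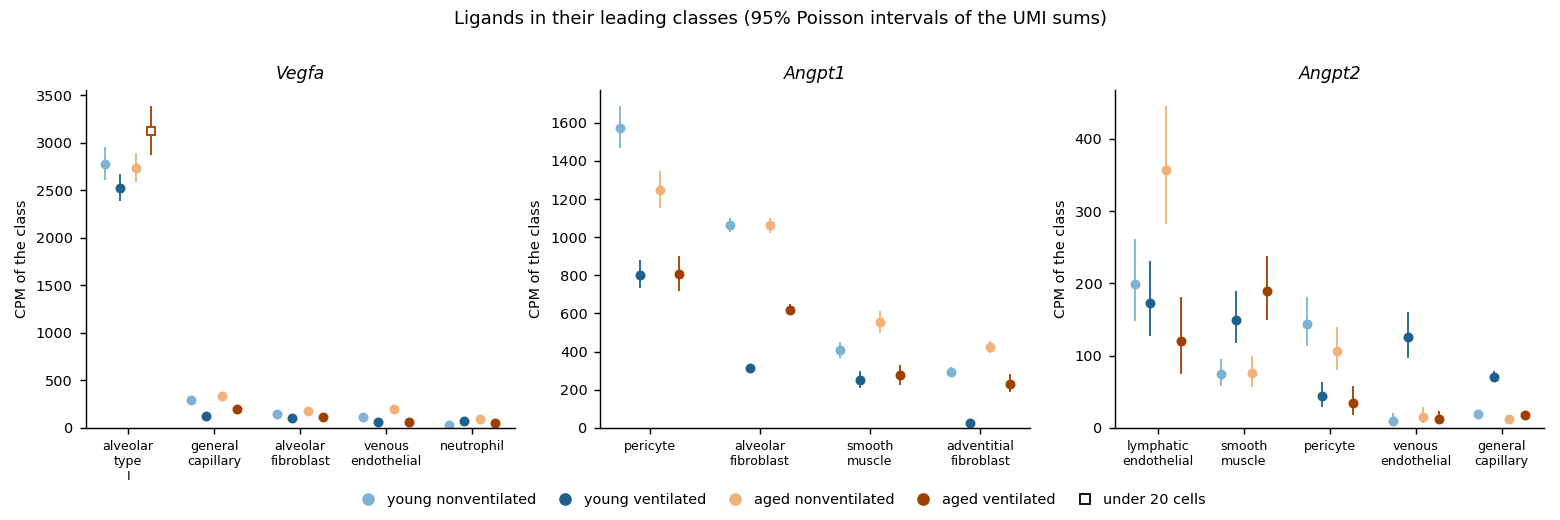
Levels of Vegfa, Angpt1 and Angpt2 (CPM, vertical axis) in the classes with the most of each, 1 point per library with its 95% Poisson interval and an open square where the class had under 20 cells. Vegfa stands at 2523 CPM or more in alveolar type I cells and at 330 CPM or less in the other classes drawn, Angpt1 is lower in both ventilated libraries in all 4 mesenchymal classes, and Angpt2 in venous and general capillary cells stands apart in the young ventilated library.

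Angpt1 was a mesenchymal message in all 4 libraries. Pericytes, the contractile cells wrapped around capillaries, had 1575, 803, 1248 and 808 CPM. Alveolar fibroblasts, the matrix cells of the alveolar wall, had 1064, 314, 1061 and 620 CPM. Smooth muscle had 408, 251, 553 and 275 CPM, and adventitial fibroblasts, found in the sheath of larger vessels and airways, had 295, 24.8, 423 and 230 CPM. The ranges of pericytes and alveolar fibroblasts overlapped over the 4 libraries, but within each library the pericytes were higher. B cells were at 0 to 5.6 CPM, and general capillary cells were at 19.2, 6.5, 22.1 and 2.2 CPM.

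Angpt1 was lower after ventilation in all 4 of these classes at both ages. In alveolar fibroblasts it was 3.39-fold lower in young mice (3.20 to 3.60) and 1.71-fold lower in aged mice (1.61 to 1.83). The fold between the 2 nonventilated libraries was 1.00 there (0.952 to 1.06), whereas the ventilated aged level was 1.98-fold above the ventilated young one (1.84 to 2.12). Adventitial fibroblasts went from 540 UMIs in 125 cells to 15 UMIs in 42 cells in young mice, 11.9-fold lower (7.15 to 21.4), and from 688 UMIs in 111 cells to 100 UMIs in 31 cells in aged mice, 1.84-fold lower (1.49 to 2.29). Without the cell that held most in each library, the aged fold in this class was 2.37 (1.86 to 3.08). Over the alternative settings the young fold ran from 6.07 to 12.5 and the aged fold from 1.64 to 3.26. Pericytes were 1.96-fold lower in young (1.75 to 2.20) and 1.54-fold lower in aged mice (1.35 to 1.78), and smooth muscle was 1.63-fold lower in young (1.32 to 2.02) and 2.01-fold lower in aged mice (1.62 to 2.52). The 8 alveolar fibroblast markers were also lower in sum, at 11226, 3769, 10387 and 4973 CPM in alveolar fibroblasts, and their part in the result was not tested. The 10 pericyte markers summed to 12833, 10518, 13733 and 12763 CPM in pericytes, a smaller shift than that of Angpt1.

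Alveolar fibroblasts held 62.5%, 70.4%, 56.6% and 72.4% of all Angpt1 UMIs in kept cells, and pericytes held 15.3%, 20.5%, 13.9% and 14.3%. Over all kept cells Angpt1 was at 239, 103, 208 and 121 CPM. The share of alveolar fibroblasts with an Angpt1 UMI after thinning to 2000 UMIs was 79.6%, 33.8%, 76.6% and 57.1%, against 0% to 1.06% of B cells. At full depth it was 99.1%, 71.0%, 98.9% and 87.6%. The aged ventilated share lay between the young ventilated and the nonventilated ones on both scales.

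Angpt2 had the fewest UMIs of any member in the kept cells, 422, 628, 355 and 223. Its highest mean level was in lymphatic endothelium, at 199, 173, 357 and 120 CPM, on 52, 46, 78 and 22 UMIs. Smooth muscle had 75.1, 150, 76.2 and 190 CPM, and pericytes had 144, 43.6, 107 and 34.1 CPM. These classes overlapped in range, so no order among them can be given. B cells were at 3.3 to 7.2 CPM.

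Angpt2 went in opposite directions in mural cell types. In smooth muscle it was higher after ventilation, 1.99-fold in young (1.41 to 2.82) and 2.49-fold in aged mice (1.72 to 3.62), the latter being 1.48-fold after each cell was thinned to 2000 UMIs. In pericytes it was lower, 3.31-fold in young (2.09 to 5.40) and 3.13-fold in aged mice (1.69 to 6.26). In lymphatic endothelium it was 1.15-fold lower in young mice, with an interval that holds 1 (0.757 to 1.75), and 2.98-fold lower in aged mice (1.84 to 5.02). In the aged lymphatic cells 35 of 78 nonventilated and 13 of 22 ventilated UMIs came from 1 cell each, and without those cells the fold was 3.78 (1.82 to 8.82).

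In general capillary and venous endothelium Angpt2 stood out in the young ventilated library. General capillary cells held 85, 340, 56 and 55 Angpt2 UMIs, or 19.5, 71.0, 12.7 and 17.1 CPM. Angpt2 was 3.65-fold higher after ventilation in young mice (2.87 to 4.68), 6.61-fold after each cell was thinned to 2000 UMIs, and 1.34-fold higher in aged mice, with an interval that holds 1 (0.907 to 1.98). After thinning to 2000 UMIs, 9.3% of young ventilated general capillary cells had an Angpt2 UMI, against 3.4% of B cells of that library. The other 3 shares, at 2.6%, 2.6% and 2.0%, were close to those of B cells (2.1%, 1.1% and 3.8%), so that Angpt2 above background was not detectable in those libraries by this share. By level they stood above B cells, which were at 5.0, 7.0, 3.3 and 7.2 CPM, and with the B cell level subtracted the young fold was 4.44 and the aged fold 1.05. At full depth the shares were 11.7%, 18.3%, 8.4% and 5.7%. The ventilated aged level was 4.16-fold below the ventilated young one (3.12 to 5.63), a fold that ran from 1.92 with a 5% mitochondrial limit to 6.50 with the B cell level subtracted.

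Venous endothelium repeated this pattern on fewer molecules. It held 7, 63, 9 and 9 Angpt2 UMIs, or 10.1, 125, 15.4 and 12.6 CPM. The young ventilated level was 12.5-fold above the young nonventilated one (5.70 to 32.2), on 63 UMIs spread over 20 of 44 cells, and the fold ran from 5.49 to 23.6 over the alternative settings. After thinning, 1.5%, 18.6%, 4.8% and 3.0% of venous cells had an Angpt2 UMI, the young ventilated share being above that of B cells and the others near it. The aged ratio rested on 9 UMIs on each side, which gives a 1.22-fold lower level with an interval of 0.431 to 3.48. The 10 pericyte markers were also higher in young ventilated venous endothelium, at 15.8, 111, 17.1 and 18.2 CPM in the 4 libraries, and their part in the result was not tested.

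The cells that held Angpt2 differed between the ventilated libraries, in a share that depends on levels and on the numbers of cells captured. General capillary cells held 20.1%, 54.1%, 15.8% and 24.7% of its UMIs in kept cells. Smooth muscle held 16.4%, 11.3%, 14.6% and 33.2%, pericytes 17.3%, 4.1%, 15.2% and 5.8%, and lymphatic endothelium 12.3%, 7.3%, 22.0% and 9.9%. Smooth muscle was the largest holder in the aged ventilated library and general capillary cells in the young ventilated one.

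**Figure D2:**
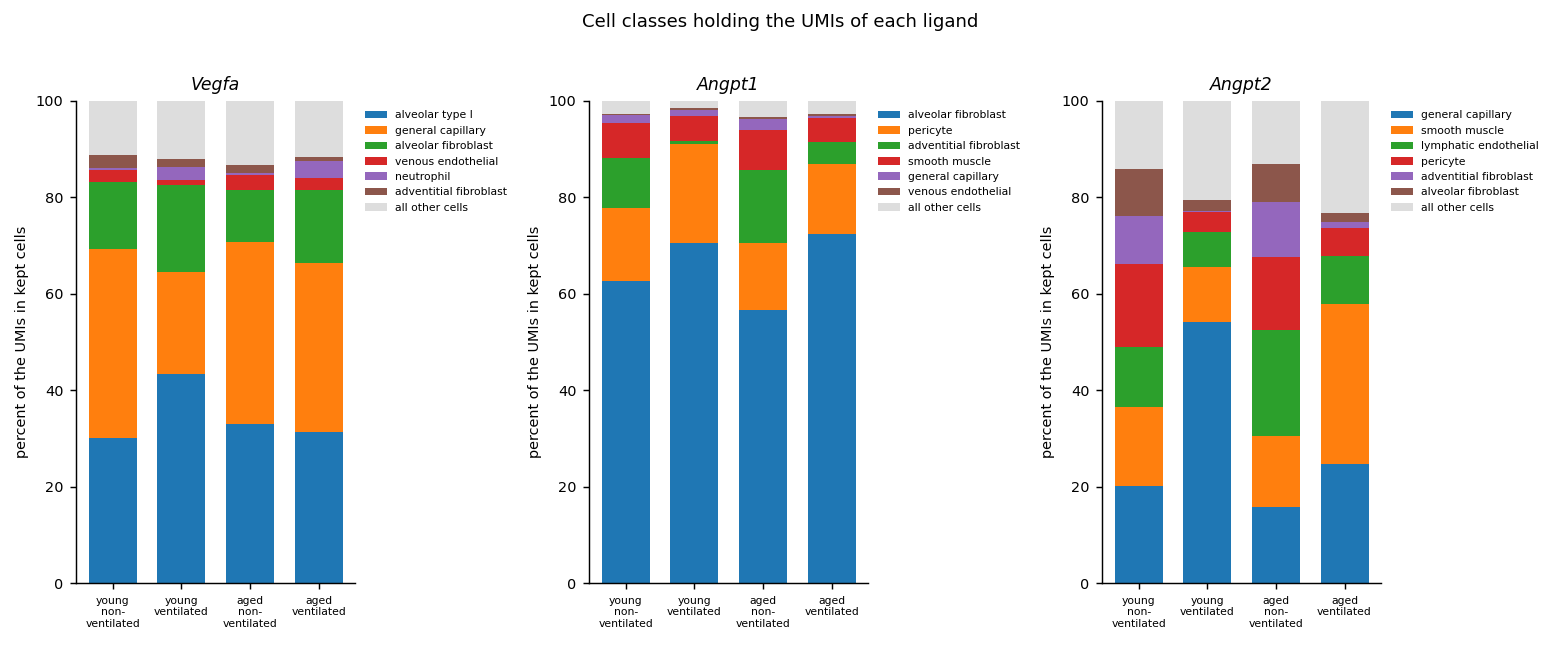
Share of each ligand's UMIs in the kept cells by cell class (percent, vertical axis), 1 stacked bar per library. General capillary cells hold 54.1% of Angpt2 in the young ventilated library and 15.8% to 24.7% in the other libraries, alveolar fibroblasts hold 56.6% to 72.4% of Angpt1, and alveolar type I and general capillary cells are the leading holders of Vegfa.

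Among the receptors, Kdr was led by aerocytes without ventilation. Aerocytes had 1803, 340, 1604 and 480 CPM of Kdr, and lymphatic endothelium had 467, 395, 572 and 371 CPM. General capillary cells had 274, 195, 220 and 173 CPM, venous endothelium 318, 157, 226 and 158 CPM, and arterial endothelium 85.7 and 291 CPM in the nonventilated libraries, where it had at least 20 cells. The arterial class formed at the settings used here but not under 5 of the alternative cell limits and resolutions. In both ventilated libraries the counting intervals of aerocytes and lymphatic endothelium overlapped, so that a lead of aerocytes was not detectable there. B cells were at 0 to 5.0 CPM.

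Kdr showed its largest change in aerocytes. It was 5.29-fold lower after ventilation in young mice (4.75 to 5.92), from 2571 UMIs in 151 cells to 373 UMIs in 122 cells. In aged mice it was 3.34-fold lower (3.00 to 3.73), from 1415 UMIs in 88 cells to 430 UMIs in 84 cells. The median depth of aerocytes was 8905, 8572, 9062 and 10012 UMIs. General capillary cells had 1.40-fold less Kdr in young (1.29 to 1.53) and 1.28-fold less in aged mice (1.15 to 1.42). Venous endothelium had 2.02-fold less in young (1.56 to 2.65), between 1.33-fold and 3.45-fold over the alternative settings, and 1.43-fold less in aged mice (1.10 to 1.86), and lymphatic endothelium had 1.18-fold less in young (0.902 to 1.55) and 1.54-fold less in aged mice (1.14 to 2.11).

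The share of aerocytes with a Kdr UMI after thinning to 2000 UMIs was 91.3%, 42.6%, 97.7% and 57.1%, against 0% to 1.06% of B cells. At full depth it was 98.0%, 81.1%, 98.9% and 90.5%. Aerocytes held 57.4%, 22.2%, 49.1% and 34.0% of Kdr UMIs in kept cells and general capillary cells held 26.7%, 55.6%, 33.6% and 44.0%, so that the leading holder of Kdr message changed from aerocytes to general capillary cells in both ventilated libraries. Between libraries, aerocyte Kdr was 1.12-fold lower in aged than in young mice without ventilation (1.05 to 1.20) and 1.41-fold higher with it (1.22 to 1.62).

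Nrp1 followed Kdr in aerocytes and was lower in general capillary and venous cells too. It was at 1996, 525, 1587 and 757 CPM in aerocytes, 544, 153, 486 and 259 CPM in general capillary cells, and 481, 123, 386 and 141 CPM in venous endothelium. The folds in young mice were 3.80 lower in aerocytes (3.48 to 4.17), 3.55 lower in general capillary cells (3.26 to 3.86) and 3.90 lower in venous endothelium (2.97 to 5.21). In aged mice they were 2.10 (1.91 to 2.30), 1.87 (1.73 to 2.03) and 2.73 lower (2.15 to 3.49). The aged venous fold was 3.39 (2.60 to 4.47) without the cell holding most in each library, 25 of 101 UMIs in the ventilated one.

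Outside the endothelium Nrp1 had no common direction over the mesenchymal classes. Alveolar fibroblasts had 361, 322, 335 and 419 CPM, adventitial fibroblasts 257, 285, 295 and 414 CPM, and smooth muscle 180, 201, 196 and 177 CPM. Pericytes, on 58, 41, 49 and 22 UMIs, had 115, 68.7, 96.9 and 57.7 CPM, 1.67-fold lower in young mice (1.10 to 2.55) and 1.68-fold lower in aged mice, with an interval that holds 1 (0.996 to 2.92). In smooth muscle the interval held 1 at both ages. In alveolar fibroblasts the level was 1.12-fold lower in young (1.04 to 1.21) and 1.25-fold higher in aged ventilated mice (1.14 to 1.37). In aged adventitial fibroblasts it was 1.40-fold higher (1.18 to 1.67), but 38 of 180 ventilated UMIs came from 1 cell, and without the top cell of each library the fold was 1.19 with an interval of 0.98 to 1.44. Thinned to 2000 UMIs, the aged ratio in this class was 0.992. Interstitial macrophages, at 179, 83.3, 178 and 77.2 CPM, had 2.15-fold less in young (1.44 to 3.29) and 2.31-fold less in aged mice (1.54 to 3.52). In T cells Nrp1 was at 174, 120, 81.4 and 206 CPM, 2.53-fold higher in aged mice (1.81 to 3.56) and, with an interval that holds 1, 1.45-fold lower in young mice (0.877 to 2.44).

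Flt1 was spread over blood endothelium and, in aged mice, stood close to its nonventilated level in both capillary types. It was at 1590, 1081, 1467 and 1427 CPM in general capillary cells, 1107, 959, 1129 and 1169 CPM in aerocytes, and 1728, 714, 1566 and 1129 CPM in venous endothelium. Arterial endothelium had 1537 and 2561 CPM in the nonventilated libraries. Lymphatic endothelium held 0, 7, 7 and 0 UMIs, where 0 allows up to 11.5 and 16.4 CPM, so that Flt1 separated blood from lymphatic endothelium whereas Kdr did not. In general capillary cells Flt1 was 1.47-fold lower in young mice (1.42 to 1.52) and 1.03-fold lower in aged mice, with an interval that holds 1 (0.990 to 1.07). In aerocytes it was 1.15-fold lower in young mice (1.07 to 1.25) and 1.04-fold higher in aged mice, with an interval that holds 1 (0.948 to 1.13). Venous endothelium had 2.42-fold less in young (2.15 to 2.73) and 1.39-fold less in aged mice (1.26 to 1.53). The ventilated aged level stood above the ventilated young one in all 3 classes, 1.32-fold (1.27 to 1.37), 1.22-fold (1.12 to 1.33) and 1.58-fold (1.39 to 1.80).

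Outside the endothelium Flt1 was found in macrophages, monocytes and pericytes. Alveolar macrophages had 442, 312, 466 and 421 CPM, 1.42-fold lower after ventilation in young mice (1.24 to 1.63) and 1.11-fold lower in aged mice, with an interval that holds 1 (0.963 to 1.28). Nonclassical monocytes, which patrol the vessel wall, had 315, 64.1, 225 and 34.7 CPM, 4.92-fold lower in young (3.96 to 6.17) and 6.48-fold lower in aged mice (5.07 to 8.39). Classical monocytes held 113, 20, 92 and 24 Flt1 UMIs in 100, 175, 137 and 125 cells, 6.00-fold lower in young (3.71 to 10.2) and 5.12-fold lower in aged mice (3.24 to 8.40). Over the alternative settings these 2 folds ran from 3.32 to 18.7 and from 2.72 to 6.60. B cells of the aged ventilated library were at 41.0 CPM of Flt1, above both monocyte classes there. Of these 34 B cell UMIs, 97.1% came from 1 cell. No aged ratio could be given for either monocyte class with the B cell level subtracted. The share of nonclassical monocytes with a Flt1 UMI after thinning was 30.8%, 7.8%, 23.4% and 5.9%, against 4.3%, 0%, 0% and 1.3% of B cells.

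Pericytes went the other way. They held 40, 171, 44 and 159 Flt1 UMIs, or 79.1, 287, 87.0 and 417 CPM, 3.62-fold higher in young (2.56 to 5.25) and 4.79-fold higher in aged mice (3.41 to 6.85). Single cells held 20, 23, 21 and 101 of these UMIs, and without the top cell of each library the folds were 6.25 (3.90 to 10.5) and 3.43 (2.09 to 5.83). Over the alternative settings they ran from 3.37 to 11.2 in young and from 2.13 to 4.95 in aged mice. The share of pericytes with a Flt1 UMI was 14.9%, 37.8%, 11.8% and 34.6% at full depth and 8.7%, 26.7%, 5.9% and 18.8% after thinning. Ptprb, highest in general capillary, venous and arterial endothelium, had 41, 0, 2 and 19 UMIs in pericytes, where 0 allows up to 5.03 CPM and 1 cell held all 19. General capillary markers in pericytes summed to 206, 41.9, 19.8 and 123 CPM, higher after ventilation in aged mice and lower in young mice. Of the 7 arterial markers, 4 stood at 0 in the young ventilated pericytes, and the list's sum of 150, 412, 158 and 506 CPM was almost wholly Gja4, at 107, 391, 137 and 454 CPM. The part of these shifts in the Flt1 result was not tested.

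**Figure D3:**
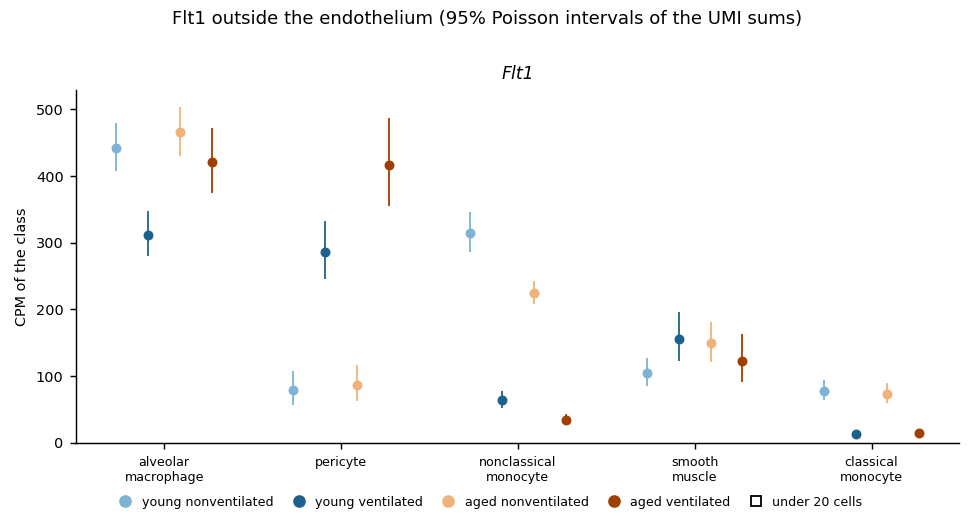
Flt1 level (CPM, vertical axis) in 5 classes outside the endothelium, 1 point per library with its 95% Poisson interval. After ventilation both ages are lower in nonclassical and classical monocytes and higher in pericytes, where 101 of the 159 UMIs of the aged ventilated library came from 1 cell, and smooth muscle shows no common direction.

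Tek, which encodes Tie2, was highest in general capillary cells, at 888, 277, 740 and 338 CPM. Venous endothelium had 641, 219, 593 and 266 CPM and arterial endothelium 374 and 432 CPM in the nonventilated libraries. Lymphatic endothelium, at 153, 90.4, 124 and 115 CPM, and aerocytes, at 118, 43.8, 94.1 and 26.8 CPM, were lower, and their ranges overlapped. Tek and Kdr thus marked different capillary types, Tek the general capillary cells and Kdr the aerocytes. B cells were at 0 to 10.1 CPM.

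Tek was lower after ventilation in every blood endothelial class that could be compared. In general capillary cells it was 3.21-fold lower in young (3.01 to 3.42) and 2.19-fold lower in aged mice (2.04 to 2.35). In venous endothelium it was 2.93-fold lower in young (2.37 to 3.64) and 2.23-fold lower in aged mice (1.86 to 2.68), and in aerocytes, on 169, 48, 83 and 24 UMIs, 2.70-fold lower in young (1.95 to 3.81) and 3.51-fold lower in aged mice (2.21 to 5.78). Without the 5% of cells with the highest Scrublet doublet scores the aerocyte folds were 5.93 and 20.6. In lymphatic endothelium both intervals held 1. After thinning, 77.3%, 37.9%, 73.1% and 39.4% of general capillary cells had a Tek UMI, against 0% to 1.06% of B cells. At full depth the shares were 96.4%, 69.1%, 95.6% and 77.4%. General capillary cells held 79.8%, 82.4%, 82.6% and 76.8% of all Tek UMIs in kept cells.

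Tie1, the partner of Tie2, was at like levels in all endothelial classes. In the classes other than the arterial one, means over the 4 libraries lay between 169 CPM in aerocytes and 233 CPM in lymphatic endothelium, and ranges overlapped. Arterial endothelium had enough cells only in the nonventilated libraries. Its 276 and 303 CPM there lay within the ranges of general capillary and venous cells. It was at 304, 134, 265 and 170 CPM in general capillary cells, 206, 109, 210 and 152 CPM in aerocytes, 313, 127, 295 and 161 CPM in venous endothelium and 237, 185, 265 and 245 CPM in lymphatic endothelium. Every other class had a mean of at most 6.2 CPM. Tie1 was 2.26-fold lower in young (2.06 to 2.49) and 1.56-fold lower in aged general capillary cells (1.41 to 1.73), and 2.46-fold lower in young (1.85 to 3.31) and 1.83-fold lower in aged venous endothelium (1.44 to 2.34). After thinning to 2000 UMIs the young venous fold was 5.82. In aerocytes the folds were 1.90 (1.53 to 2.37) and 1.38 lower (1.10 to 1.74). In lymphatic endothelium both intervals held 1, as they did for Tek.

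Ptprb, the phosphatase of the axis, had 16721, 4695, 13693 and 4701 UMIs in kept cells. This was the most UMIs of any member in both nonventilated libraries, while in the ventilated ones Flt1 had more, 7801 and 7381 UMIs. These counts do not rank the genes by amount of message, because introns were counted and the genes differ in length. The Ptprb level was 2972, 785, 2486 and 1085 CPM in general capillary cells, 2839, 833, 2203 and 940 CPM in venous endothelium, and 3472 and 2982 CPM in the arterial endothelium of the nonventilated libraries. Lymphatic endothelium had 436, 313, 590 and 403 CPM and aerocytes 251, 78.5, 329 and 125 CPM. The ranges of general capillary and venous cells overlapped, arterial endothelium stood above both in each nonventilated library, and lymphatic endothelium and aerocytes stood below all 3. B cells were at 56.7, 3.5, 1.1 and 1.2 CPM, with 42 of the 45 UMIs of the first library in 1 cell.

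After ventilation Ptprb was 3.78-fold lower in young (3.65 to 3.92) and 2.29-fold lower in aged general capillary cells (2.21 to 2.38). Venous endothelium had 3.41-fold less in young (3.07 to 3.80) and 2.34-fold less in aged mice (2.13 to 2.58), and aerocytes 3.20-fold less in young (2.52 to 4.10), 6.78-fold without the cells of highest doublet score, and 2.63-fold less in aged mice (2.11 to 3.30). The aerocyte values rest on few cells, as a Ptprb UMI was found in 35 of 151, 20 of 122, 24 of 88 and 21 of 84 aerocytes. In lymphatic endothelium the folds were 1.40 (1.04 to 1.87) and 1.46 lower (1.09 to 1.98). The young lymphatic fold rested on 1 nonventilated cell with 30 of 114 UMIs, and without the top cells it was 1.13 with an interval of 0.82 to 1.56. After thinning to 2000 UMIs, 99.1%, 70.3%, 97.2% and 79.0% of general capillary cells had a Ptprb UMI, against 0% to 3.4% of B cells. At full depth the shares were 99.6%, 91.9%, 99.2% and 94.8%, so that most ventilated cells still held Ptprb message.

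**Figure D4:**
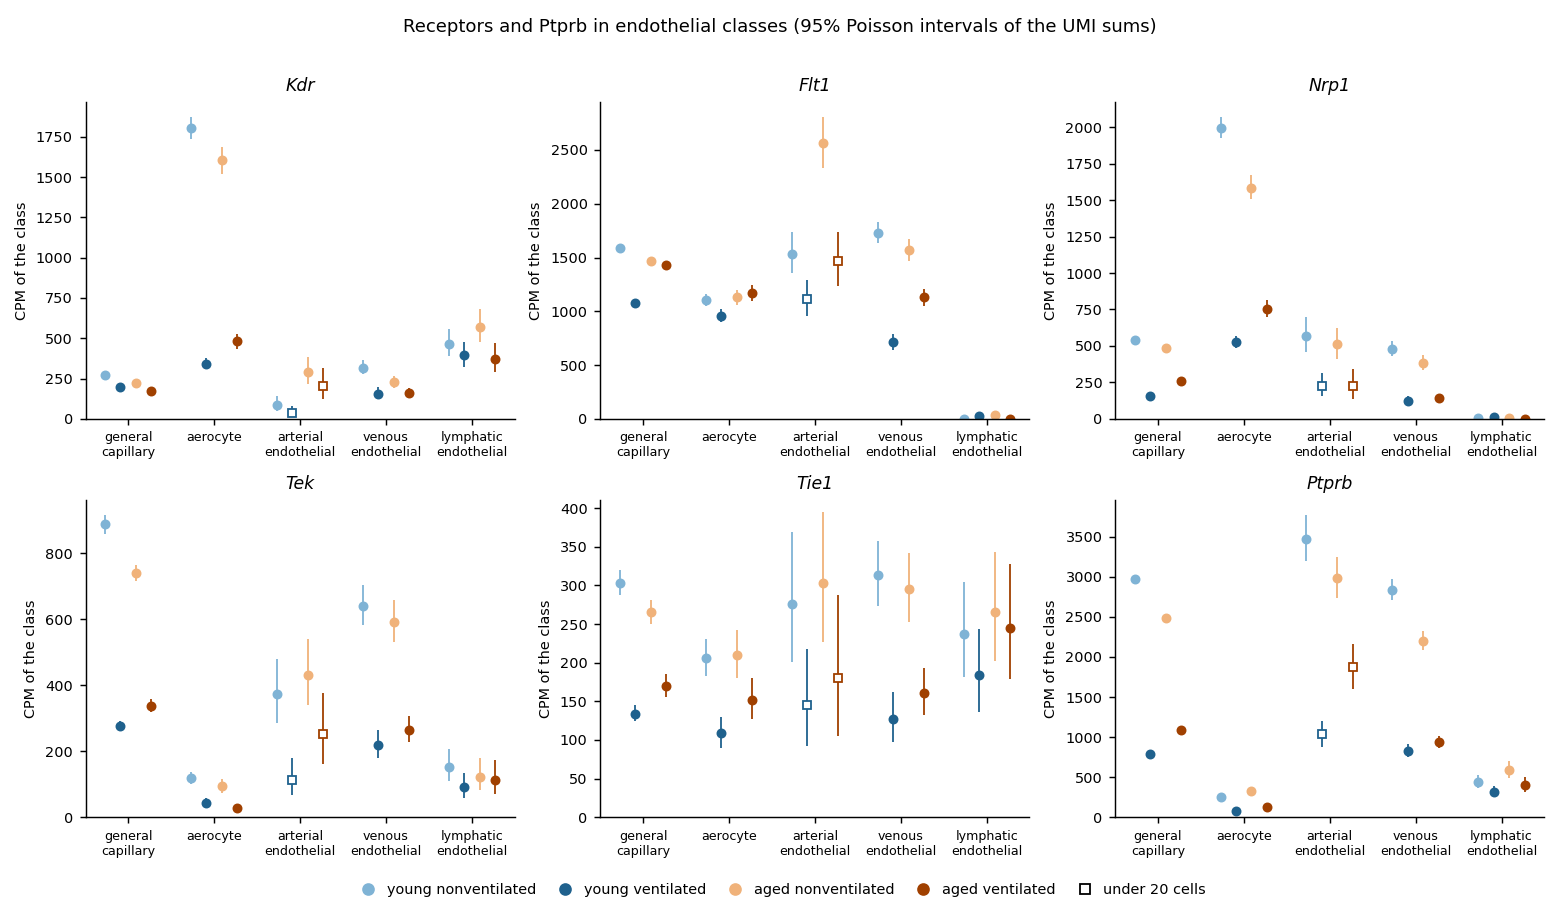
Levels of the 5 receptors and Ptprb (CPM, vertical axes) in the 5 endothelial classes, 1 point per library with its 95% Poisson interval and an open square where the class had under 20 cells. Kdr and Nrp1 are highest in nonventilated aerocytes, at 1587 CPM or more, Tek and Ptprb are low in aerocytes, and Flt1 is near 0 in lymphatic endothelium.

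Set beside all genes of the same cells, the members were more often lower than higher after ventilation. Of 3662 genes that averaged 50 CPM or more and had 20 UMIs or more in 1 of the libraries compared in young general capillary cells, 9.69% were 2-fold lower and 9.09% were 2-fold higher, and the median log2 ratio was -0.06. Of the 7 members that passed this limit, 5 were 2-fold lower and 0 were 2-fold higher, with a median of -1.21. In aged general capillary cells 5.95% of 3632 genes were lower and 4.54% higher, with a median of -0.04, and 2 of 7 members (Tek and Ptprb) were lower and 0 higher, with a median of -0.70. In young aerocytes 12.7% of 3618 genes were lower and 11.8% higher, and in aged aerocytes 7.95% of 3621 genes were lower and 6.41% higher. There 4 of 6 members (Kdr, Nrp1, Tek and Ptprb) were lower and 0 higher at each age, with medians of -1.54 and -1.23. Angpt1 and Angpt2 did not pass the limit in these cells, and Vegfa did not in aerocytes. Tek was found in 59, 17, 29 and 12 aerocytes and Ptprb in 35, 20, 24 and 21, in each library a minority of the class. The members were chosen with earlier results of these data known, and those that could be counted had high levels. These counts therefore describe them alone.

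Long genes as a whole stood lower after ventilation in these cells, which bears on the members because 5 of the 9 span more than 100 kb. Genes of 100 kb or more had a median log2 ratio of -0.22 in young and -0.22 in aged general capillary cells and of -0.31 and -0.31 in aerocytes, and 16.8%, 12.3%, 23.7% and 19.4% of them were 2-fold lower. Flt1, at 164 kb, Nrp1, at 145 kb, Tek, at 136 kb, and Ptprb, at 114 kb, belong to this group with Angpt1, at 252 kb. Kdr spans 45.6 kb, Tie1 18.9 kb and Vegfa 15.4 kb. The part of gene length in the members' ratios was not tested.

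**Figure D5:**
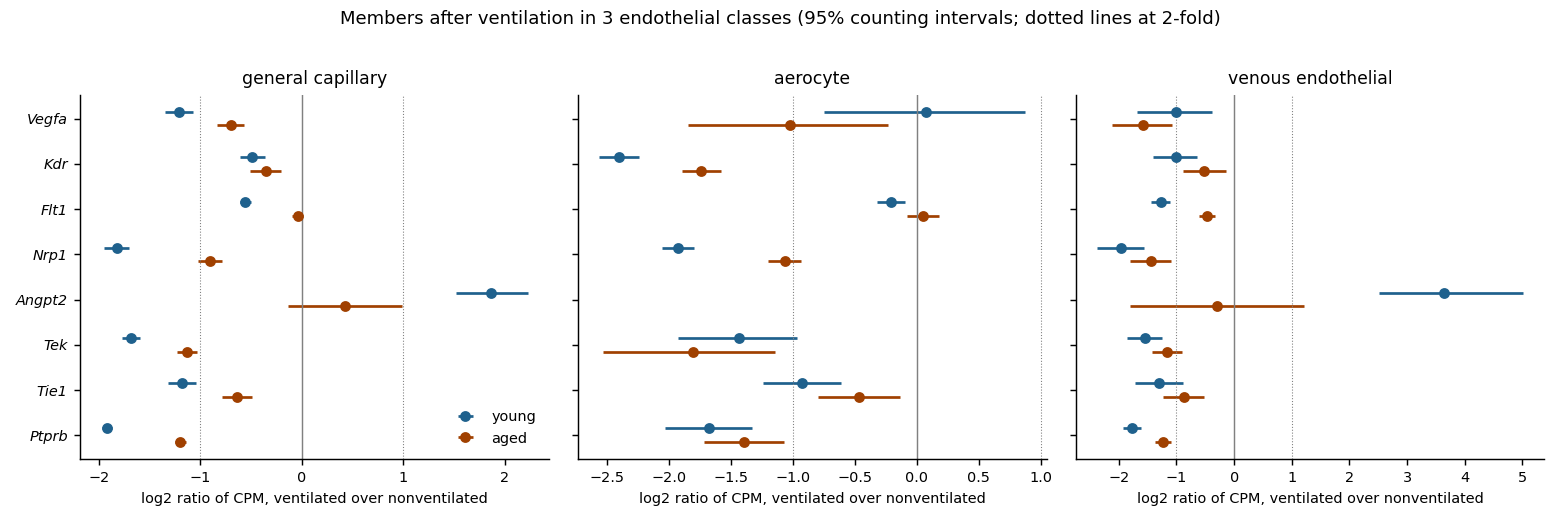
Log2 ratio of the CPM of ventilated over nonventilated libraries (horizontal axis) for 8 members in general capillary cells, aerocytes and venous endothelium, young and aged drawn separately with 95% counting intervals, and dotted lines at 2-fold. Angpt2 is not drawn for aerocytes. Tek, Nrp1 and Ptprb lie left of 0 in all panels, with young below aged except for Tek in aerocytes. Angpt2 lies right of 0 in young general capillary and venous cells, and in aged general capillary cells with an interval that holds 0.

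The response to ventilation was smaller in the aged than in the young libraries for most members in capillary cells. Among all genes that passed the limit on low values, 2-fold changes were also fewer in aged mice. In general capillary cells 9.69% were lower and 9.09% higher in young mice, against 5.95% and 4.54% in aged mice. In aerocytes the shares were 12.7% and 11.8%, against 7.95% and 6.41%. A smaller aged response was thus not limited to the members, and whether theirs went beyond that of all genes was not tested. The difference in log2 ratio, aged minus young, was positive in general capillary cells for Nrp1 (+0.92, interval 0.75 to 1.09), Ptprb (+0.72, 0.65 to 0.80), Tek (+0.55, 0.42 to 0.68), Tie1 (+0.54, 0.34 to 0.74), Flt1 (+0.52, 0.44 to 0.59) and Vegfa (+0.51, 0.32 to 0.70). For Angpt2, which was higher after ventilation, the difference was -1.45 (-2.08 to -0.81), which is also a smaller aged response. For Kdr in general capillary cells the interval held 0. Angpt1, at 22.1 CPM or less in these cells, differed by -1.77 (-3.03 to -0.52), a larger aged response. In aerocytes the difference was +0.86 for Nrp1 (0.67 to 1.04), +0.66 for Kdr (0.44 to 0.89), +0.46 for Tie1 (0.02 to 0.90) and +0.26 for Flt1 (0.09 to 0.43). Vegfa in aerocytes went the other way, at -1.09 (-2.16 to -0.02), and for Tek and Ptprb there the interval held 0. Angpt2 in aerocytes, on 6, 11, 1 and 16 UMIs, was at 4.2, 10.0, 1.1 and 17.9 CPM. Its difference there was +2.72, toward a larger aged response, with an interval that holds 0 (-0.53 to 5.97). In venous endothelium the difference was +0.80 for Flt1 (0.59 to 1.02), +0.54 for Ptprb (0.34 to 0.74) and -3.93 for Angpt2 (-5.68 to -2.19), and for the other members there the interval held 0. In lymphatic endothelium Angpt2 differed by -1.37 (-2.27 to -0.48), and by 0.03 after thinning to 2000 UMIs. Angpt1 differed by +0.99 in alveolar fibroblasts (0.86 to 1.11), by +2.69 in adventitial fibroblasts (1.89 to 3.49) and by +0.34 in pericytes (0.09 to 0.60), and in smooth muscle by -0.31 with an interval that holds 0 (-0.74 to 0.12). These intervals cover counting error only, and a difference between 2 pools of mice cannot be told apart from one between ages. A lower tidal volume per kg in heavier aged mice cannot be told apart from age either.

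The aged ventilated library differed from the young one in the make-up of its capillary cells. Of its 349 general capillary cells, 57 (16.3%) lay in the cluster that held nearly all nonventilated cells, against 9 of 619 in the young ventilated library. The 57 cells had 1607 CPM of Ptprb, 504 CPM of Tek, 534 CPM of Nrp1, 241 CPM of Kdr and 0 UMIs of Angpt2, which allows up to 5.70 CPM. The other 292 cells had 983 CPM of Ptprb, 306 CPM of Tek, 206 CPM of Nrp1, 159 CPM of Kdr and 20.4 CPM of Angpt2. Ptprb, Tek and Nrp1 in these 292 cells were above the levels of all young ventilated general capillary cells (785, 277 and 153 CPM), as were Flt1 (1478 against 1081 CPM), Tie1 (162 against 134 CPM) and Vegfa (180 against 127 CPM). Kdr and Angpt2 were below theirs (195 and 71.0 CPM). Clusters are drawn from the expression of other genes of the same cells, so this split is a description.

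In nonventilated lungs the members that passed the limit on low values in general capillary cells and aerocytes differed with age by at most 1.31-fold there. In general capillary cells Tek was 1.20-fold (1.14 to 1.26), Ptprb 1.20-fold (1.17 to 1.23), Kdr 1.24-fold (1.14 to 1.36), Tie1 1.15-fold (1.06 to 1.24), Nrp1 1.12-fold (1.06 to 1.19) and Flt1 1.08-fold (1.05 to 1.12) lower in aged mice, and Vegfa was 1.12-fold higher (1.04 to 1.21). Angpt2, on 85 and 56 UMIs, was 1.53-fold lower in aged mice (1.08 to 2.18), and the aged over young ratio was 1.03 after thinning to 2000 UMIs. In aerocytes Ptprb was 1.31-fold higher (1.12 to 1.53), but its ratio was 0.817 with a 5% mitochondrial limit. Nrp1 in aerocytes was 1.26-fold lower in aged mice (1.18 to 1.34), and for Flt1, Tie1 and Tek the interval held 1. Vegfa in aerocytes, on 31 and 42 UMIs, was 2.19-fold higher in aged mice (1.34 to 3.60). In pericytes Angpt1 was 1.26-fold lower in aged mice (1.14 to 1.40). In lymphatic endothelium Angpt2 was 1.79-fold higher in aged mice (1.25 to 2.60). Of its UMIs there, 18 of 52 in young and 35 of 78 in aged mice came from 1 cell each, and without those cells the levels were 134 and 204 CPM. No member that could be counted differed by 2-fold between the nonventilated libraries in general capillary cells or aerocytes.

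Genes around the axis were read from 7 lists of 50 genes in all. Of the 27 list genes that passed the limit on low values in young general capillary cells, 4 were 2-fold higher and 4 were 2-fold lower, with a median log2 ratio of 0.03. In aged general capillary cells 3 were higher and 2 lower of 29 (median -0.03), in young aerocytes 2 higher and 6 lower of 23 (-0.36), and in aged aerocytes 1 higher and 5 lower of 25 (-0.18). Over all genes that passed the limit, the shares higher and lower were 9.09% and 9.69% in young and 4.54% and 5.95% in aged general capillary cells. In aerocytes they were 11.8% and 12.7% in young and 6.41% and 7.95% in aged mice. The medians of the members in the same cells are given above. The lists count few genes each.

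Among the transcription factors and outputs, Klf2, a flow-induced factor that keeps endothelium quiescent, was lower in all 4 comparisons. It was at 1345, 197, 955 and 275 CPM in general capillary cells and 1572, 375, 1555 and 499 CPM in aerocytes. Thbd, which encodes the anticoagulant thrombomodulin, was at 798 and 263 CPM in young general capillary cells and 794 and 232 CPM in young aerocytes. Rcan1, an output of calcineurin signalling that VEGF-A induces, was higher in general capillary cells, at 65.7 and 291 CPM in young and 86.7 and 202 CPM in aged mice. Dll4, the Notch ligand of tip cells, was at 96.0 and 218 CPM in young general capillary cells. In aerocytes Apln, which encodes apelin, was lower at both ages, at 274 and 132 CPM in young and 235 and 107 CPM in aged mice, as was Nr4a1, an immediate early factor, at 96.8 and 15.5 CPM in young and 87.3 and 17.9 CPM in aged mice.

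Among the genes acting near the receptors, Plcg1, the phospholipase downstream of VEGFR2, was lower in general capillary cells, at 97.3 and 24.6 CPM in young and 95.3 and 44.4 CPM in aged mice, and in aged aerocytes, at 104 and 42.4 CPM. Shb, an adaptor of VEGFR2, was higher in young general capillary cells, at 134 and 275 CPM. Of the VEGF family beyond the members, Nrp2, a co-receptor for VEGF-C, was higher in aged general capillary cells, at 32.8 and 89.7 CPM. Itgav, an integrin chain, was higher in young aerocytes, at 56.1 and 118 CPM. Of the 5 junction partners of Ptprb, Jup, which encodes plakoglobin, was 2-fold lower in young general capillary cells, at 342 and 92.1 CPM, and in aerocytes of both ages, at 353 and 122 CPM in young and 405 and 189 CPM in aged mice. The other 4 partners, VE-cadherin among them, did not pass 2-fold in these cells at either age.

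Among hypoxia genes, Hif1a, which encodes the oxygen-regulated factor that acts on Vegfa, was higher in each of these 4 comparisons. It was at 61.3 and 298 CPM in young and 70.5 and 312 CPM in aged general capillary cells, and at 50.5 and 207 CPM in young and 40.8 and 122 CPM in aged aerocytes. Egln1, a prolyl hydroxylase that marks the factor for decay, was lower in young aerocytes, at 86.2 and 32.9 CPM. Vegfa itself was lower in the same general capillary cells, as given above. None of the receptor-shedding proteases Adam10, Adam17 and Mmp14 that passed the limit differed by 2-fold in these cells.

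The genes whose levels over the 24 classes ran most like each member were found by Pearson's r of log2(CPM + 1) among 9354 genes. Each class was taken as the mean CPM of its libraries. The points share libraries and cells, so r is a description. Tek ran with Plvap (0.96), Shank3 (0.96) and Ptprb (0.96), Tie1 with Emcn (0.97), Fgd5 (0.95) and Egfl7 (0.95), and Ptprb with Adgrl4 (0.96), Tek (0.96) and Cyyr1 (0.95). Kdr ran with Unc45b (0.92), Sh3tc2 (0.89) and Sema3f (0.89), and Flt1 with Clec1a (0.85), Klhl5 (0.83) and Calcrl (0.83). Angpt1 ran with Lama2 (0.88), Rasl12 (0.86) and Tubb4a (0.85), Angpt2 with Dock6 (0.88), Cdr2l (0.87) and Smtn (0.87), Vegfa with Ndst1 (0.83), Arhgef26 (0.80) and Nckap5 (0.75), and Nrp1 with Tbx3 (0.74), Endou (0.70) and Pknox2 (0.69). Among the members, only Tek and Ptprb were named for each other.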

How the data were processed

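Each of the 4 libraries was made with the 10x Genomics 3' v3.1 kit. The matrices deposited by the authors hold raw UMI counts per gene and barcode, made with Cell Ranger 7.0.0 on mm10 per the submitters' processing notes, with filtering and counting at the tool's defaults, which in this version count introns. Nothing was normalized before deposit. Doublets were not stated to have been removed beyond the study's limit on genes.

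From these counts, barcodes with 200 to 5000 genes, at most 10% mitochondrial counts and at most 21021 UMIs (the 93rd percentile of barcodes left) were kept. They were normalized to 1000000 UMIs per cell on a natural log scale and clustered in Seurat 5.3.0 (R 4.3.3) on 2000 variable genes with the members removed (5 were among them), 37 principal components and resolution 1. A cluster was named for the marker list of highest mean fold where at least 3 of its markers were detected in at least 20% of cells and the 10 leading genes held no more markers of other lists than of its own. This rule was set after the clusters were seen. The 5 clusters with a median UMI count under 1/3 of the library's, holding 318, 428, 271 and 274 cells, were left unnamed. Scrublet in scanpy 1.11.5 called 42 of 9514 cells (0.441%), too few to have worked, so no cell was removed as a doublet. Across pairs of libraries 23 barcodes were shared, 8 of them kept.

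CPM, intervals (Poisson for a sum, conditional binomial for a ratio, Clopper-Pearson for a share, all at 95%) and list counts were computed in Python 3.11.15 with scipy 1.17.1 and drawn with matplotlib 3.10.9. Log2 ratios behind the counts and medians over genes had 1 UMI added, and those behind differences between ages had none. Ratios needed 20 cells in each library. Floors for a count of 0 are 3 UMIs. Intervals and floors cover counting error only. A gene was counted in a list at a mean of 50 CPM with 20 UMIs in 1 library, and past the fold at 2. The 9 members were named in every class with values, list genes where they passed 2-fold in capillary cells, and for each member the 3 genes of highest r. With 1 library a group, no test was possible. The members and lists were chosen with earlier results of these data known. Scripts were tested on simulated data. Gene positions are from GENCODE M21 (32158 genes matched by identifier, 99.6%), and promoter windows from RefSeq. Of 12 alternatives, 11 were planned (other UMI limits, scalings, resolutions, filters, thinning, doublet scores, free RNA) and 1 was added.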

Additional observations from a re-analysis of the deposited data

Results flagged for a closer look

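In alveolar fibroblasts, Nrp1 moved in opposite directions at the 2 ages: the ratio of ventilated over nonventilated CPM was 0.892 in young and 1.25 in aged mice. In neutrophils, Vegfa did the same, with a ratio of 2.26 in young and 0.542 in aged mice, from sums of 18, 80, 21 and 65 UMIs over the 4 libraries. Without the cell holding most in each library, the aged neutrophil level was 1.36-fold lower with an interval of 0.68 to 2.51. The aged ratio in neutrophils was 1.24 after thinning all cells to a depth of 2000 UMIs. The difference between ages was not tested in either case, because each group was 1 library.

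The barcodes left out by the limits on genes, mitochondrial counts and UMIs held 41.3%, 40.7%, 45.0% and 48.9% of the UMIs of the 9 members in the young nonventilated and ventilated and the aged nonventilated and ventilated libraries. Over all barcodes Ptprb was at 707, 170, 528 and 216 CPM, against 767, 207, 628 and 265 CPM in the kept cells. Over all barcodes Angpt1 was at 189, 76.0, 197 and 100 CPM, and Kdr at 182, 64.8, 106 and 58.2 CPM.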

How the results depend on the processing

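No paired analysis was possible because each group was 1 library, and for the same reason no replicate could be left out. Over all alternatives, of 1064 recomputed ratios of ventilated over nonventilated levels 974 stayed within their interval, 87 moved beyond their interval and 3 with an interval that left out 1 changed direction. Of 506 ratios between ages 470, 33 and 3 did so, and of 520 differences of responses 478, 40 and 2. Where the interval held no change, the direction also turned in 17 of 183, 14 of 116 and 35 of 252 values. Of 144 counts, 131 stayed within 1.5 times. With each cell thinned to 2000 UMIs, the young Angpt2 ratio in general capillary cells was 6.61, and ratios that changed side were those of Angpt2 between nonventilated ages in general capillary cells (1.03), of Nrp1 in aged adventitial fibroblasts (0.992) and of Vegfa in aged neutrophils (1.24), as well as the Angpt2 difference in lymphatic endothelium (0.0302). With a 5% mitochondrial limit the aged over young Ptprb ratio in aerocytes was 0.817 without and 0.703 with ventilation. With the UMI limit taken over all barcodes, Flt1 in smooth muscle changed side (young ratio 0.933, difference 0.27). The young Ptprb ratio in general capillary cells, 0.264, was 0.277 with median-of-ratios scaling and 0.275 as a mean of per-cell CPM. The Angpt1 ratio in alveolar fibroblasts, 0.295 in young and 0.584 in aged mice, was 0.270 and 0.523 with the UMI limit over all barcodes, 0.273 and 0.521 with no UMI limit, 0.365 and 0.698 at resolution 0.18, 0.358 and 0.709 at resolution 0.5, and in young mice 0.316 as a per-cell mean. At resolution 0.18 only 13 classes were named, and venous endothelium, adventitial fibroblasts, pericytes, smooth muscle and classical monocytes gave no value. No arterial class formed there, at resolution 0.5, with either other UMI limit or with the 5% mitochondrial limit. The cause of these shifts was not tested.

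Among list counts, with no filter beyond 20 UMIs 8 genes were lower in young and 4 in aged general capillary cells, and 4 were higher in young and 2 in aged aerocytes. With a limit of 10 CPM the aerocyte counts were also 4 and 2. At 1.5-fold, 8 list genes were higher in young general capillary cells, 6 higher and 8 lower with 5 members lower in aged ones, and 4 higher in aerocytes of each age. With the low-UMI clusters added to their classes, an alternative chosen after seeing the data, 1 was higher in young aerocytes. Classes under 20 cells under an alternative gave no value. With the B cell level subtracted, a ratio also gave no value where a level was not above that of B cells. This held for Flt1 in aged ventilated monocytes of both classes and for Vegfa in young ventilated classical monocytes.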

Other observations

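Several member levels lay in cells too few to compare. Alveolar type II cells, the surfactant makers, were 14, 17, 18 and 4 cells in the young nonventilated and ventilated and the aged nonventilated and ventilated libraries, and held 163, 58, 100 and 6 Nrp1 UMIs and 15, 60, 31 and 9 Vegfa UMIs. Mesothelial cells, which line the lung surface, were 9, 12, 3 and 3 cells and held 33, 25, 18 and 3 Kdr UMIs. The arterial endothelium of the ventilated libraries was 19 and 8 cells, with 1035 and 1870 CPM of Ptprb and 114 and 254 CPM of Tek.

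Kdr was detected at a low level in pericytes, at 12, 44, 16 and 20 UMIs, 3.11-fold higher after ventilation in young mice (interval 1.61 to 6.47) and 1.66-fold higher in aged mice with an interval that holds 1 (0.816 to 3.42). Ptprb outside the endothelium was often held by single cells: 30 of 40 UMIs in aged nonventilated neutrophils, 20 of 23 in aged nonventilated alveolar type I cells and 28 of 41 in young nonventilated pericytes came from 1 cell each. In dendritic cells Nrp1 was at 105, 32.8, 72.1 and 32.9 CPM, lower in both ventilated libraries.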
